A study of Homo sapiens with 4 samples.

Results

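The 10 genes of retinoid metabolism, retinoid signalling and the GPRC5 receptor family described here were taken out of 48162 genes in the deposited count table. They are GPRC5A, GPRC5B, GPRC5C, ALDH1A1, ALDH1A3, CRABP2, RARB, RARG, RARRES1 and DHRS3, and all 10 were found in the table by symbol. They were chosen with their difference between wild-type and TMEM9-depleted cells already known, so that difference is given below as a description and without a test. The cells were labelled as MDA-MB-453, a human breast cancer line, in 2 groups of 2 libraries each: wild type (WT), with no allele or agent named, and cells labelled as TMEM9 KD, in which TMEM9, a membrane protein of lysosomes and endosomes, is reduced. The sources used here do not give the means by which TMEM9 was reduced, nor whether the knockdown cells are 1 clone or a pool. Separate cultures are not stated for the 2 libraries of a group, so errors and p-values cover the spread of these libraries alone, and that spread may be technical.

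Retinol enters cells through the receptor STRA6, is oxidised to retinal by dehydrogenases such as RDH10, and can be turned back by the retinal reductase DHRS3. ALDH1A1, ALDH1A2 and ALDH1A3, the retinaldehyde dehydrogenases, make retinoic acid from retinal, CRABP2 carries the acid to its nuclear receptors, and CYP26 enzymes clear it. RARA, RARB and RARG bind DNA with an RXR partner at paired copies of a short motif, and RARB and RARRES1 are known for being induced by retinoic acid and silenced in many breast cancers. GPRC5A was first found as a gene that retinoic acid induces, and gave its name to a small group of orphan receptors with a short outer domain.

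Totals ran from 15323843 to 18517337 counts per library, and the share of mitochondrial transcripts was 3.98% in each WT library against 3.18% and 2.83% in the knockdown libraries. TMEM9 itself had 1120 and 1497 counts in WT and 51 and 78 in TMEM9 KD, a log2 fold change of -4.37 (SE 0.126), so both labels hold on the targeted gene. Across the 14923 genes that passed the filter on low counts, edgeR called 57.7% different between the groups at an adjusted p below 0.05, with 28.7% higher and 29.0% lower in TMEM9 KD. Counts of called genes below have to be read against these shares. Of the luminal and apocrine markers that define this line, ERBB2 was present, at 63.7 ± 0.105 CPM in WT (mean ± SD, n = 2), while PIP had 0 counts in all 4 libraries. SPDEF, KRT19, EPCAM and CDH1 had at most 9 counts in any library. These epithelial and apocrine markers were thus absent or nearly so in libraries labelled as this line, and the design text of the series speaks of retinal profiles, so the line is named here only as the labels give it. CPM is the count over the TMM-scaled library size.

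The RefSeq promoter table (GRCh38.p14) held 8 of the 10 genes, with 13 start sites, and GPRC5A and GPRC5C are named only. Both strands of the 250 bases before each start were searched for the receptor half-site in the spelling AGGTCA or the variants AGTTCA or GGTTCA or GGGTCA, and for direct repeats of any 2 of these with 1, 2 or 5 bases between them. The repeat therefore contains 2 half-sites by construction. One of the 4 RARB starts held a direct repeat with 5 bases between, the form first described as the retinoic acid response element of this gene, and it lay 53 to 37 bases before the start. Over the whole table, 0.074% of the 35116 promoters of the same length held a repeat of that spacing. No member start held a repeat with 1 or 2 bases between, which 0.0968% and 0.0313% of all promoters held. Single half-sites were common, in 33.8% of all promoters and 7 of the 13 member starts. The RARB window is shown whole and with the repeat in capitals, since it is the member start that carries the textbook element. Stretches of CRABP2, GPRC5B and DHRS3 are shown with their lone half-site in capitals, and the last 100 bases before the ALDH1A1 start, which held no match, are in lower case throughout. A match is a description of letters, and no match says only that these letters are not in this window.
RARB, chr3:25428013-25428262, plus strand: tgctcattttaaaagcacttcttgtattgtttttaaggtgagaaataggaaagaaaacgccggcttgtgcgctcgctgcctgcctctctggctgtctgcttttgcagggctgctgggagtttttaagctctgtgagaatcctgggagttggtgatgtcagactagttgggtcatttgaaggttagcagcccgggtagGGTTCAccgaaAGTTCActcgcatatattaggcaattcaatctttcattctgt
CRABP2, chr1:156705935-156706034, minus strand: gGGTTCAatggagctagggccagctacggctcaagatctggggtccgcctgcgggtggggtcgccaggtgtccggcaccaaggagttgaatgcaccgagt
GPRC5B, chr16:19885785-19885884, minus strand: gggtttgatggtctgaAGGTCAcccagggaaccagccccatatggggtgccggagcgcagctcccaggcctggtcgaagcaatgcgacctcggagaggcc
DHRS3, chr1:12616890-12616989, minus strand: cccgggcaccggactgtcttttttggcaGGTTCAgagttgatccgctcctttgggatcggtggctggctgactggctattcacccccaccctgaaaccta
ALDH1A1, chr9:72953054-72953153, minus strand: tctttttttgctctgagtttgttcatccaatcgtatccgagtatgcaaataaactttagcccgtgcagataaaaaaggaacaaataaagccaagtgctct

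The leading GPRC5 receptor differed between the groups. GPRC5C (ENSG00000170412, chromosome 17) had 1456 and 1700 counts in WT and 28 and 27 in TMEM9 KD, or 97.4 and 94.6 against 1.71 and 1.55 CPM. Both knockdown libraries were low, and the difference was 58.7-fold (log2 fold change -5.88, SE 0.137). Among all genes tested, 4.44% were called lower by at least 4-fold. GPRC5A (ENSG00000013588, chromosome 12) went the other way, with 25.6 and 24.9 CPM in WT and 67.7 and 75.6 CPM in TMEM9 KD. The level was 2.84-fold higher (log2 fold change 1.51, SE 0.0905). GPRC5B (ENSG00000167191, chromosome 16), a receptor known from lipid rafts, had 13.6 and 15.1 CPM in WT and 21.6 and 21.3 CPM in TMEM9 KD, a log2 fold change of 0.57 (SE 0.126). The WT and knockdown libraries did not overlap for any of the 3, as was so for 77.6% of all genes tested. The other family member, GPRC5D, a plasma cell antigen that lies beside GPRC5A on chromosome 12, had 7 and 4 counts in WT and 8 and 7 in TMEM9 KD and did not pass the filter.

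**Figure D1:**
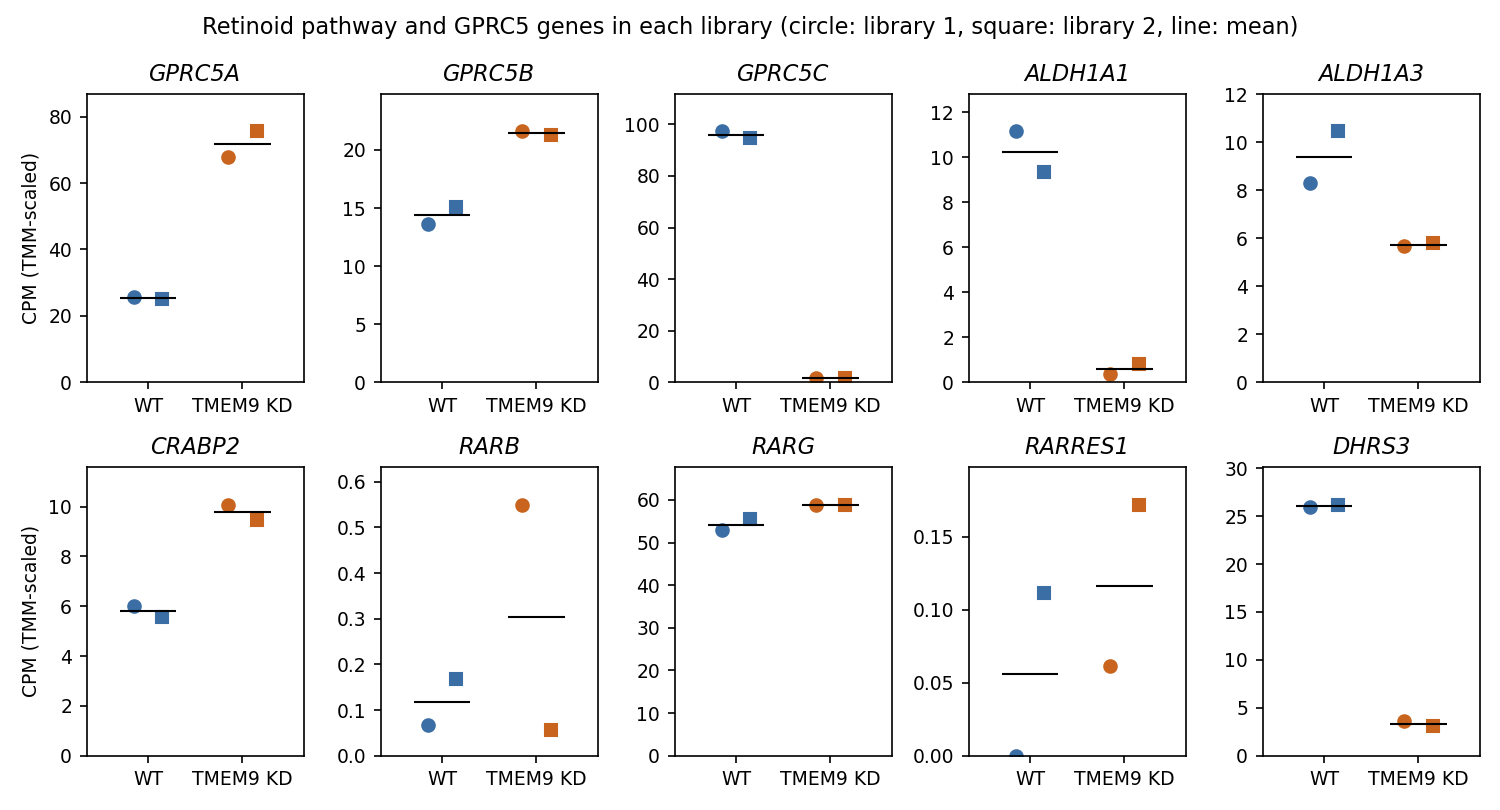
TMM-scaled CPM (vertical axes, each from 0 with its own range) of the 10 genes in each library, with WT in blue, TMEM9 KD in orange, circles for library 1, squares for library 2 and lines at the group means. GPRC5C, ALDH1A1 and DHRS3 lie near 0 in both TMEM9 KD libraries, GPRC5A lies above 60 in both, and the RARB and RARRES1 panels span less than 1 CPM.

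Levels of different genes were compared per length, as TPM over the union of exons in GENCODE 29, within a library. In WT, GPRC5C made up 68.7% ± 0.229 of the summed GPRC5 transcripts (mean ± SD, n = 2), followed by GPRC5A with 17.2% ± 0.0350 and GPRC5B with 12.4% ± 1.12. In TMEM9 KD, GPRC5A made up 68.9% ± 2.24 and GPRC5B 26.2% ± 1.45, while GPRC5C was down to 1.66% ± 0.192. The summed TPM of the 4 receptors was 65.5 ± 1.26 in WT and 50.3 ± 2.42 in TMEM9 KD. With the length of the longest transcript in place of the exon union, the leading receptor was the same in each group, with 83.1% for GPRC5C in WT and 65.6% for GPRC5A in TMEM9 KD, but the WT share of GPRC5A was 8.88%. GPRC5C was then at 88.3 TPM in WT and 1.62 TPM in TMEM9 KD, and GPRC5A at 9.43 and 28.9 TPM. The summed level therefore fell by more with these lengths, and the size of its fall depends on the length used.

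Of the enzymes that make retinoic acid, the 2 members ALDH1A1 and ALDH1A3 were lower in TMEM9 KD, by very different amounts. ALDH1A1 (ENSG00000165092, chromosome 9), also used as a stem cell marker in breast tissue, had 167 and 168 counts in WT and 6 and 14 in TMEM9 KD, or 11.2 and 9.35 against 0.366 and 0.802 CPM. The groups were far apart, with a 17.1-fold lower level in TMEM9 KD and a log2 fold change of -4.10 (SE 0.294) that became -4.78 without TMEM9 KD replicate 2. The knockdown value rests on 20 counts in all, and the counting interval of the ratio of WT to TMEM9 KD ran from 11.0 to 28.5 (95%, exact Clopper-Pearson, counting error only). ALDH1A3 (ENSG00000184254, chromosome 15), the main source of aldehyde dehydrogenase activity in many breast cancer lines, had 8.29 and 10.5 CPM in WT and 5.68 and 5.79 CPM in TMEM9 KD. The 2 WT libraries lay nearly as far apart as the lower of them lay from TMEM9 KD, and the log2 fold change was -0.72 (SE 0.182).

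ALDH1A3 is overlapped on the opposite strand by AC015712.2, an antisense gene with 14 and 32 counts in WT and 76 and 114 in TMEM9 KD. AC015712.2, named after its values were seen, was called higher (log2 fold change 2.01, SE 0.294, edgeR adjusted p = 5.7e-09). The strand setting of the counting is not given, so reads in exons shared by ALDH1A3 and AC015712.2 may not be told apart. Whether they share any exon was not examined. The remaining enzyme, ALDH1A2, had 0 counts in both WT libraries and 9 and 5 in TMEM9 KD, and did not pass the filter. With the 2 WT libraries set together to a floor of 3 counts, ALDH1A2 was 4.54-fold higher. This value depends on the floor and is no lower bound. The counting interval of the ratio of TMEM9 KD to WT started at 3.23. Within the 3 enzymes, ALDH1A1 held 68.8% ± 6.20 of the TPM in WT and 16.2% ± 7.38 in TMEM9 KD, and ALDH1A3 31.2% ± 6.20 and 79.9% ± 5.33. Their summed TPM was 19.6 ± 0.740 in WT and 5.09 ± 0.420 in TMEM9 KD.

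**Figure D2:**
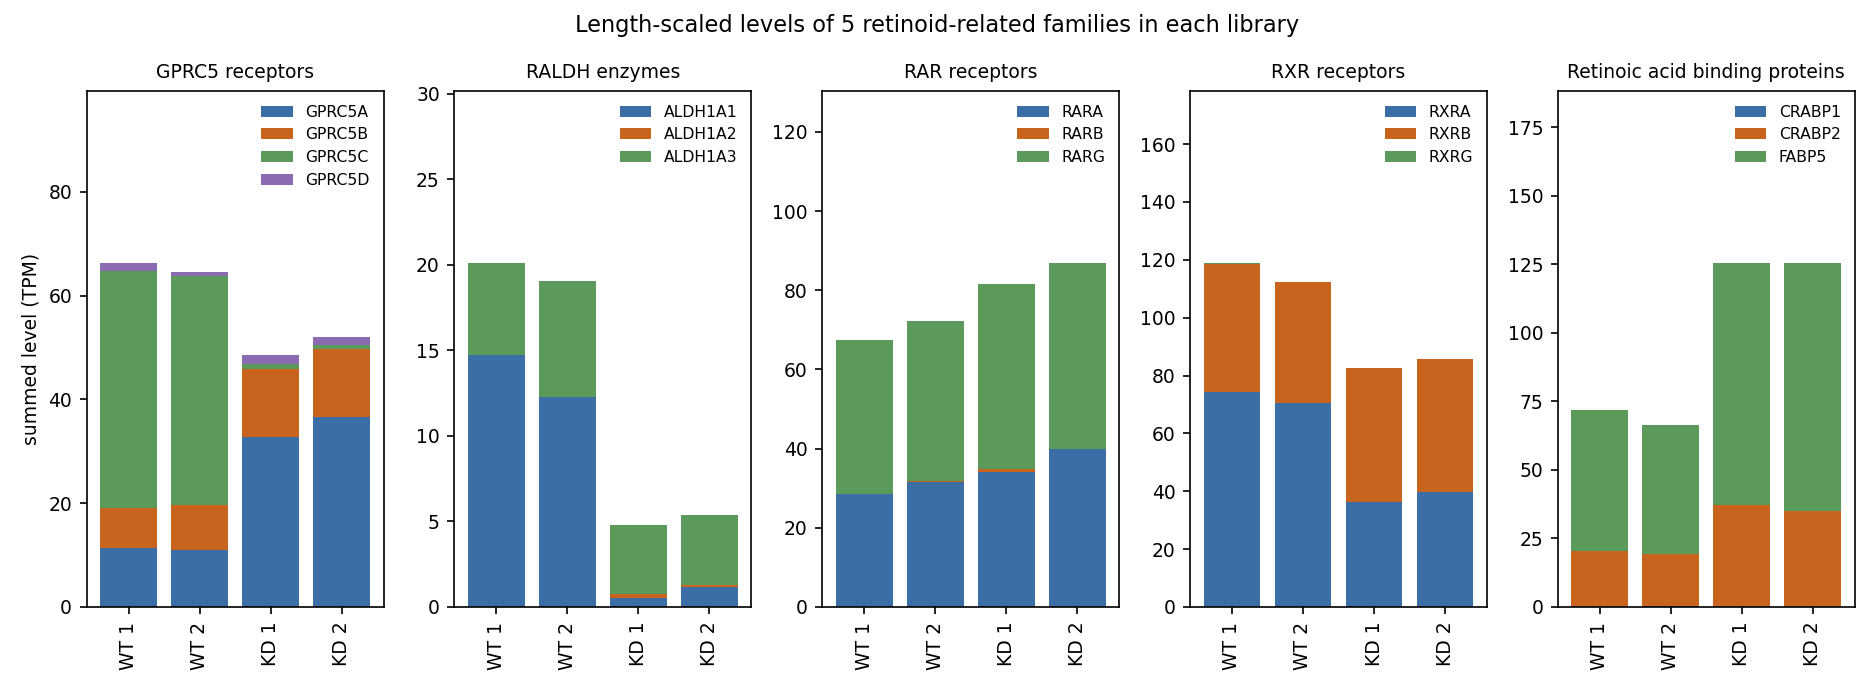
Stacked levels in TPM (vertical axes, from 0, each with its own range) of 5 families in each of the 2 WT and 2 TMEM9 KD libraries, with each gene as a coloured layer. GPRC5C fills most of the WT bars and GPRC5A most of the KD bars of the GPRC5 panel, and ALDH1A1 shrinks from 68.8% to 16.2% of the retinaldehyde dehydrogenase bars.

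DHRS3 (ENSG00000162496, chromosome 1), which reduces retinal and so limits the supply of retinoic acid, was lower. It had 388 and 471 counts in WT and 59 and 54 in TMEM9 KD, or 25.9 and 26.2 against 3.60 and 3.09 CPM. The 2 libraries of each group were close together, and the level was 7.79-fold lower (log2 fold change -2.96, SE 0.161). CRABP2 (ENSG00000143320, chromosome 1), the carrier that hands retinoic acid to its receptors, was higher, with 6.02 and 5.56 CPM in WT and 10.1 and 9.45 CPM in TMEM9 KD. This is a log2 fold change of 0.76 (SE 0.179). FABP5, a fatty acid carrier that can bind retinoic acid and deliver it to PPARD, is no member and rose alongside, from 27.3 ± 1.52 to 45.4 ± 0.622 CPM (log2 fold change 0.74, edgeR adjusted p = 1.38e-10). Since both were higher by like amounts, CRABP2 held 28.6% ± 0.0605 of the TPM of the binding proteins in WT and 28.9% ± 1.21 in TMEM9 KD. CRABP1 had 1 count over all 4 libraries. The rise of FABP5 did not pass the test against a 1.5-fold change (adjusted p = 0.0835).

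Among the receptors, RARG (ENSG00000172819, chromosome 12), prominent in epithelia and skin, was the most abundant RAR and differed least of the tested members. It had 53.0 and 55.4 CPM in WT and 58.9 and 58.8 CPM in TMEM9 KD, a log2 fold change of 0.12 (SE 0.0819). The groups did not overlap, but neither do those of 77.6% of all genes tested. RARB (ENSG00000077092, chromosome 3) had 1 and 3 counts in WT and 9 and 1 in TMEM9 KD. A single knockdown library held most of its counts, the groups overlapped, and the counting interval of the ratio of TMEM9 KD to WT ran from 0.702 to 10.6 around 2.43. RARRES1 (ENSG00000118849, chromosome 3), a membrane protein also known as tazarotene-induced gene, had 0 and 2 counts in WT and 1 and 3 in TMEM9 KD. Its ratio of 1.95 had an interval from 0.279 to 21.5. Neither gene passed the filter, and differences in them were not detectable at this depth. RARB overlaps TOP2B and RARRES1 overlaps MFSD1 on the opposite strand, and both neighbours had over 1000 counts in every library.

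The other receptors come from 8 lists of pathway genes, in which no member was placed. RARA was not called, with 38.0 ± 2.80 CPM in WT and 42.9 ± 4.62 CPM in TMEM9 KD (log2 fold change 0.18, edgeR adjusted p = 0.1), but it was called with library totals alone as the scaling (adjusted p = 0.0166) and without TMEM9 KD replicate 1 (adjusted p = 0.00587). RXRA, the most abundant of the RXR partners in WT, fell from 213.9 ± 7.51 CPM in WT to 102.9 ± 6.63 CPM (log2 fold change -1.05, SE 0.0653, edgeR adjusted p = 4.86e-27). RXRB was not called, at 44.9 ± 1.75 and 44.5 ± 0.467 CPM, with a log2 fold change of -0.012 that became 0.0622 with library totals alone. RXRG had 6 counts in WT and 0 in TMEM9 KD. As shares of the TPM of the 3 RAR genes, RARG held 56.8% ± 1.10 in WT and 55.7% ± 2.39 in TMEM9 KD, RARA 43.0% ± 1.01 and 43.9% ± 2.87, and RARB under 1% in every library. RXRA held 62.6% ± 0.234 of the RXR transcripts in WT and 45.0% ± 1.86 in TMEM9 KD, where RXRB was the larger with 55.0% ± 1.86. With longest transcript lengths RXRA stayed the larger in TMEM9 KD, at 53.8%.

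Of the 8 members that passed the filter, 7 passed the threshold of edgeR, 3 higher and 4 lower, beside 57.7% of all genes tested. As the members were chosen on this contrast, nothing is read from that count. In order of TPM in WT, the members ran from GPRC5C (45.0), RARG (39.7) and DHRS3 (32.2) through CRABP2 (19.8), ALDH1A1 (13.5), GPRC5A (11.2), GPRC5B (8.10) and ALDH1A3 (6.09) to RARB (0.119) and RARRES1 (0.0932). Only RARB and RARRES1 overlapped with their neighbour between the 2 WT libraries. In TMEM9 KD the order was RARG (46.9), CRABP2 (36.3), GPRC5A (34.7), GPRC5B (13.2), DHRS3 (4.50), ALDH1A3 (4.06), ALDH1A1 (0.838), GPRC5C (0.831), RARB (0.335) and RARRES1 (0.213). There, CRABP2 could not be ordered against GPRC5A, ALDH1A1 against GPRC5C, or RARB against RARRES1, as their libraries overlapped. RARG thus kept a place among the first 2 in both groups, while GPRC5C went from the first place to one that it shared with ALDH1A1, below ALDH1A3. With longest transcript lengths all 10 kept their rank in WT and 6 of 10 in TMEM9 KD.

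By Euclidean distance of log2 CPM over the 4 libraries, among 14923 tested genes, the profile nearest to GPRC5A was that of ADAMTS6 (distance 0.157), a metalloproteinase with 24.2 ± 1.21 CPM in WT and 72.4 ± 0.432 CPM in TMEM9 KD. TNFRSF21, a death receptor, came next (distance 0.215). Nearest to ALDH1A3 were TP53TG1 (0.108) and TTC30B (0.146). With 2 groups of 2 libraries, such likeness reflects a like level and a like group difference and no more.

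The wider pathway was tested with the same fit. Of 154 genes of the 8 lists matched in the table, 91 passed the filter, and 28 rose and 33 fell in TMEM9 KD, which is 67.0% called beside 57.7% of all genes tested (28.7% higher and 29.0% lower). Their median log2 fold change was -0.01, beside 0.01 for all genes tested. The number that rose was 16 without WT replicate 2. Against a 1.5-fold change, 6 rose and 20 fell.

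Uptake, carrier and storage genes were lower more often than higher, with 5 of 8 tested genes of this list falling and 1 rising. That is 75% called, beside 57.7% of all genes tested. STRA6, the retinol uptake receptor, fell from 38.5 ± 1.10 to 15.6 ± 1.01 CPM (log2 fold change -1.30, edgeR adjusted p = 6.71e-19). PNPLA4, a lipase that acts on retinyl esters, had 39 and 46 counts in WT and 3 and 2 in TMEM9 KD (log2 fold change -4.06, SE 0.569). BCO2, which cleaves carotenoids, had 27 and 13 counts in WT against 4 and 3 (log2 fold change -2.53), and its call was lost without WT replicate 1 (log2 fold change -1.77, edgeR adjusted p = 0.143). LPL, a lipoprotein lipase that also releases retinol from its esters, went the other way, from 4 counts in each WT library to 122 and 109 (log2 fold change 4.77, SE 0.39). LRAT, which esterifies retinol for storage, and the plasma carrier TTR had 0 counts in all libraries.

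Genes that interconvert retinol and retinal went both ways, with 4 of 12 tested rising and 4 falling, which is 66.7% called beside 57.7% of all genes tested. Those that fell were led by SDR16C5, an epidermal retinol dehydrogenase with 11 and 14 counts in WT and 0 in TMEM9 KD. With the 2 knockdown libraries set together to a floor of 3 counts, SDR16C5 was 8.56-fold lower. This value depends on the floor and is no lower bound. The counting interval of the ratio of WT to TMEM9 KD started at 6.46. AKR1B10, AKR1C3 and AKR1B1, aldo-keto reductases with retinal among several substrates, fell by 1.39, 1.20 and 0.84 on the log2 scale, and share sequence with close relatives among which reads may have been split. RDH10, the dehydrogenase that forms retinal in development, rose from 7.41 ± 1.44 to 9.97 ± 1.45 CPM (log2 fold change 0.43, edgeR adjusted p = 0.0259). Among genes of synthesis, binding and clearance, 2 of 4 tested rose and 1 fell, which is 75% called beside 57.7% of all genes tested. CYP26B1, which degrades retinoic acid, fell from 21.2 ± 0.438 to 6.10 ± 0.276 CPM (log2 fold change -1.80, edgeR adjusted p = 2.63e-19). AOX1, an aldehyde oxidase that can oxidise retinal, rose from 42.9 ± 1.31 to 146.8 ± 1.92 CPM (log2 fold change 1.78). CYP26A1 had 4 counts over all 4 libraries.

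**Figure D3:**
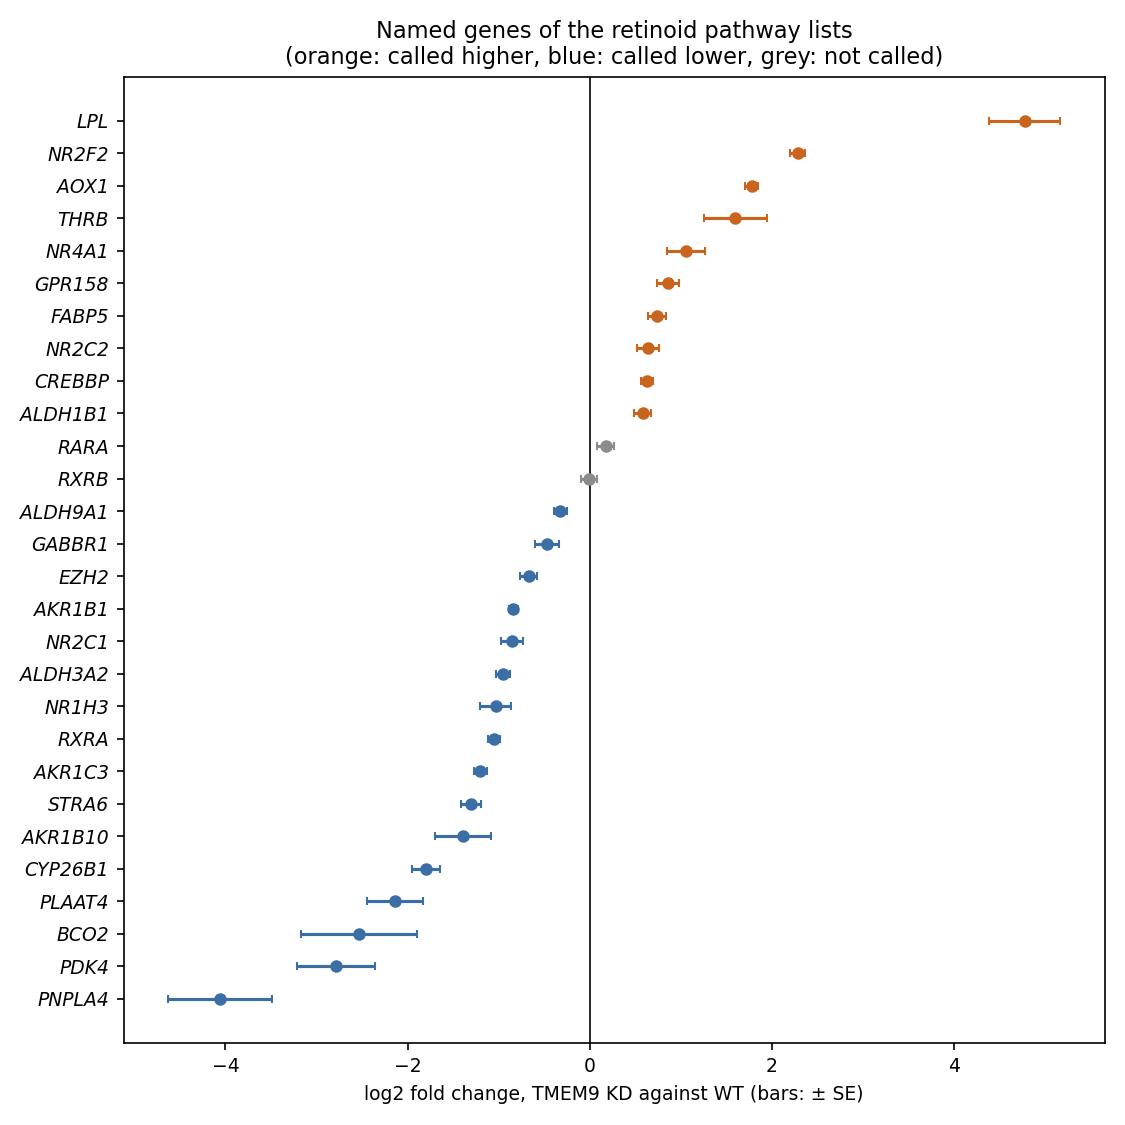
Fitted log2 fold change of TMEM9 KD against WT (horizontal axis, points with bars of ± SE) for tested genes of the 8 pathway lists that were named by rule and are reported here, with orange for called higher, blue for called lower and grey for not called. SDR16C5, with 0 counts in TMEM9 KD, is left out. LPL and NR2F2 lie farthest to the right and PNPLA4 farthest to the left, and RARA and RXRB lie near 0.

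Genes known to respond to retinoic acid, other than the members, fell more often than they rose, with 12 of 23 tested falling and 7 rising (median log2 fold change -0.21). Of all genes tested, 29.0% fell and 28.7% rose. PDK4, a kinase that restrains pyruvate use, had 55 and 53 counts in WT and 5 and 11 in TMEM9 KD (log2 fold change -2.78, SE 0.425, and -3.41 without TMEM9 KD replicate 2). PLAAT4, a phospholipase once named RARRES3, fell from 5.24 ± 0.724 to 1.19 ± 0.137 CPM (log2 fold change -2.13). NR2F2, an orphan nuclear receptor, had the largest rise in the list, from 21.6 ± 0.438 CPM to 104.7 ± 2.20 CPM in TMEM9 KD (log2 fold change 2.28, SE 0.0865, edgeR adjusted p = 1.75e-42). STRA6 and CYP26B1 are in this list too. Of the coregulators of the retinoid receptors, 8 of 20 tested rose and 6 fell, which is 70% called beside 57.7% of all genes tested. The corepressor genes NR2C1, with the largest called change in this list, and EZH2 fell by 0.85 and 0.67, and the acetyltransferase gene CREBBP and the orphan receptor gene NR2C2 rose by 0.63 and 0.64. Of these, NR2C1 alone passed the test against a 1.5-fold change (adjusted p = 0.0211).

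**Figure D4:**
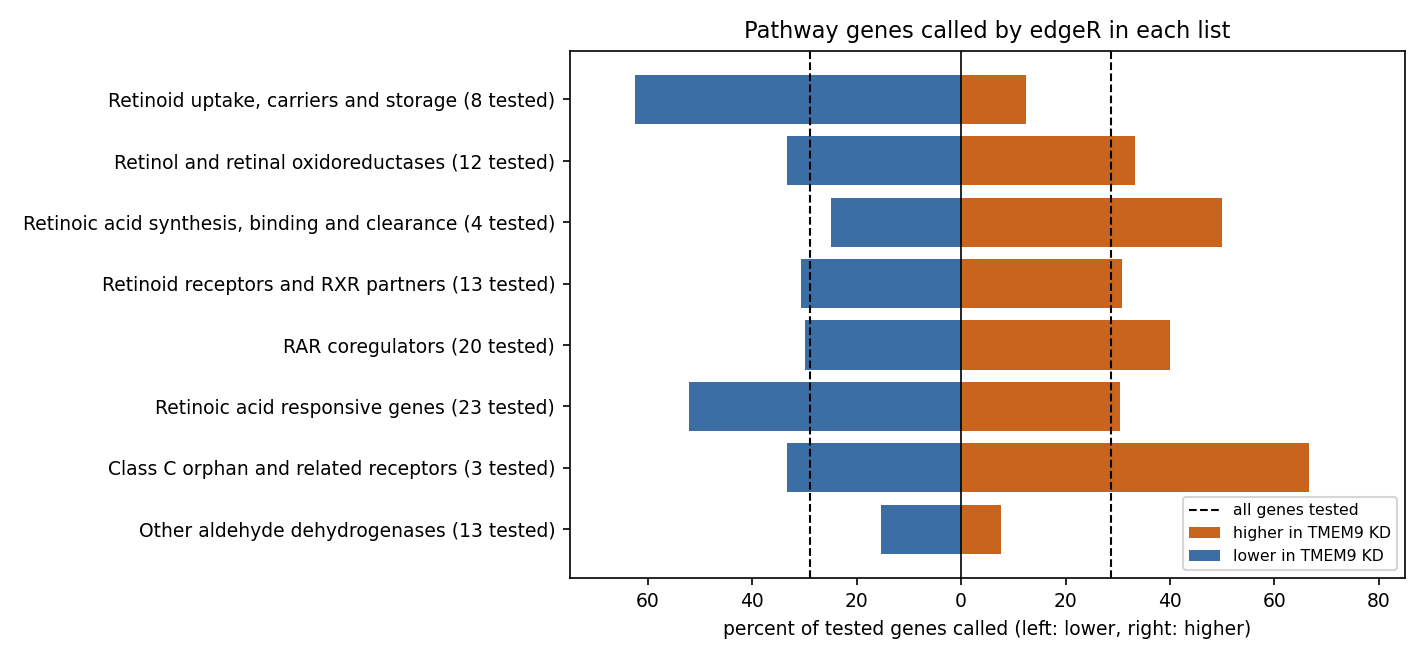
Percent of the tested genes of each pathway list that edgeR called higher (orange, to the right) or lower (blue, to the left) in TMEM9 KD, with dashed lines at the 28.7% and 29.0% of all genes tested. Lists hold between 3 and 23 tested genes, so a single gene moves a short bar far.

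Among nuclear receptors that share RXR as partner, together with RARA and the RXR genes, 4 of 13 tested rose and 4 fell. That is 61.5% called, beside 57.7% of all genes tested. THRB, a thyroid hormone receptor whose gene lies beside RARB on chromosome 3, rose from 1.14 ± 0.190 CPM to 3.42 ± 0.347 CPM (a log2 fold change of 1.60, SE 0.346). NR4A1 rose by a log2 fold change of 1.05, and the oxysterol receptor gene NR1H3 fell by 1.03. Relatives of the members by family were listed as well. Of the class C receptors outside GPRC5A, GPRC5B and GPRC5C, 15 of 18 did not pass the filter. GPR158 rose (log2 fold change 0.86) and GABBR1 fell (-0.47), the latter not without WT replicate 1 (adjusted p = 0.0827). Of 13 other aldehyde dehydrogenase genes tested, 10 were not called, which is 23.1% called beside 57.7% of all genes. ALDH1B1 rose by 0.58 and ALDH3A2 and ALDH9A1 fell by 0.95 and 0.32 on the log2 scale.

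Markers of other cell types differed between the groups as well, and their counts stand beside 28.7% higher and 29.0% lower of all genes tested. Of 14 basal and myoepithelial markers tested, 11 fell and 1 rose, with a summed level of 1465 and 1489 CPM in WT and 1001 and 1020 CPM in TMEM9 KD, and KRT5, KRT14 and KRT6B had 0 counts in TMEM9 KD. Of 12 fibroblast markers tested, 5 rose and 6 fell, and their sum was 3365 and 3403 against 2376 and 2606 CPM, with none at 0 in all libraries. The sum of the leukocyte markers was 198.8 and 197.9 CPM in WT against 11.9 and 13.3 CPM in TMEM9 KD. LCP1, an actin-bundling protein, made up 185.8 and 183.5 CPM of it in WT and 5.86 and 6.53 CPM in TMEM9 KD, where PTPRC gave another 4.20 ± 0.274 CPM (mean ± SD, n = 2). The leukocyte markers CD3E, MS4A1, LYZ and CD8A were at 0 in all libraries, and 12 of 16 were below the filter. Of 12 luminal and apocrine markers tested, 3 rose and 4 fell, with sums of 739.9 and 748.5 against 706.0 and 730.2 CPM. Endothelial markers summed to at most 3.04 CPM and photoreceptor markers to at most 18.3 CPM in any library, with GNAT1 and RCVRN at 0. The part of these differences in the values of the retinoid genes was not tested, and in bulk RNA fewer cells of a type cannot be told apart from less RNA per cell.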

How the data were processed

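RNA-seq libraries of 2 groups of 2 were read from a table in which the authors deposited raw counts per Ensembl gene, 1 column per library. Per the submitters' processing notes, CASAVA and Bowtie 0.12.2 were used, and hg19 and mm8 are named, without roles. The sources used here do not give the counting tool, the annotation or the strand setting. Symbols came from a gene table and, for 304 genes, from GENCODE 29, whose build differs, so only names, order and lengths were used. The promoter windows are of GRCh38.p14.

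Counts were fitted with edgeR 4.0.16 in R 4.3.3 (quasi-likelihood, TMM, filterByExpr with a minimum count of 10 and total of 15, group only), with Benjamini-Hochberg adjustment over 14923 genes and a threshold of 0.05. SE was derived from the fold change and the F statistic of each gene. The fit was also run on simulated counts in which few genes differed, as many up as down. It called 100% of genes changed 4-fold and 44% of those changed 1.25-fold. That run cannot speak to scaling or error rates where 57.7% of genes are called. Members and lists were chosen with earlier results of these data known. Named were all members, TMEM9, certain receptors and enzymes whatever their value, and up to 4 called genes per list by size of change, of which only some are given and some are not reported here, with other genes of the lists added after their values were seen. Of 267 list entries, 262 matched a gene. Each library was counted as a replicate. Libraries of a group differed by more than sampling noise (chi-square over degrees of freedom 2.04 and 4.82), which does not show that they were separate cultures. Alternatives were other scalings, filters, tests (DESeq2 1.42.0, limma voom 3.58.1, a 1.5-fold threshold), a replicate block, each library left out, and longest transcript lengths. The depth, 15323843 to 18517337 counts per library, leaves genes below about 10 counts without a usable ratio.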

Additional observations from a re-analysis of the deposited data

How the results depend on the processing

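The log2 fold changes of the 8 tested members kept their direction in all 12 alternatives run for them, from -5.94 to -5.80 for GPRC5C, -4.78 to -3.65 for ALDH1A1, 1.42 to 1.59 for GPRC5A and 0.08 to 0.19 for RARG, and TMEM9 ran from -4.67 to -4.14. Against a 1.5-fold change, which is a stricter question, 2803 genes were called, 1111 higher and 1692 lower, and 26 pathway genes, 6 higher and 20 lower. Leaving out a library gave 6622 to 8578 calls, 3172 to 4173 higher and 3450 to 4405 lower, and among pathway genes 44 to 63 calls, 16 to 29 higher and 28 to 34 lower. RXRB, not called in any setting, changed sign with library totals alone (0.0622) and without WT replicate 1 (0.0212), and ran from -0.0588 to 0.0212 over the fits without a library. With library totals alone, 57.4% of the calls were higher, against 49.7% with TMM, and the median over all genes tested was 0.0813. With longest transcript lengths, 6 of 10 members kept their rank in TMEM9 KD. No label says whether the same numbers in the titles pair the libraries. The deviations of same-numbered libraries had a correlation of 0.000474 across genes, which cannot show how the libraries were prepared. A replicate block gave 8437 calls against 8618. Groups of 2 libraries and members with few counts, RARB and RARRES1 above all, limit what can be seen.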

Other observations

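The genes next to the members on the chromosome were listed too. Of the 20 nearest protein-coding genes on both sides of the 10 members, in the order of GENCODE 29, 13 passed the filter, and 3 were called higher and 2 lower by edgeR, beside 57.7% of all genes tested. Next to GPRC5C on chromosome 17, GPR142 had 0 counts and CD300A 1 count over all libraries. Next to DHRS3, VPS13D was at 72.3 ± 0.805 CPM in WT and 75.8 ± 1.29 CPM in TMEM9 KD and was not called (edgeR adjusted p = 0.457), while AADACL4 had 1 count in all. Next to ALDH1A1, ANXA1, an abundant phospholipid-binding protein, was at 378.3 ± 15.2 and 400.1 ± 20.1 CPM and was not called (adjusted p = 0.216). Beside GPRC5A, DDX47 had 7 to 15 counts per library and was not called (adjusted p = 0.286). LRRK1 beside ALDH1A3 rose by a log2 fold change of 0.60, against the -0.72 of ALDH1A3, and ISG20L2 and NES on either side of CRABP2 rose by 0.66 and fell by 1.06. THRB beside RARB had the largest difference of the 13, given with the receptors. These neighbours were looked up after the values of the members were known.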
